A study of Mus musculus with 40 samples.

Results

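The mRNAs of the 3 vesicular glutamate transporters, Slc17a7 (VGLUT1), Slc17a6 (VGLUT2) and Slc17a8 (VGLUT3), were followed through whole-cell and synaptoneurosome fractions of mouse brain in 2 TRAP lines. These genes were chosen by symbol, and all 3 were found among the 41388 genes counted in each library. TRAP, translating ribosome affinity purification, recovers mRNA on GFP-tagged ribosomes made only in Cre-expressing cells. The study used the Rbp4 TRAP strain, in which the Rbp4-cre transgene drives the tag in layer 5 pyramidal neurons of the cortex, and the Vgat TRAP strain, in which Cre expressed from the gene of VGAT (Slc32a1) drives it in GABAergic neurons. Both lines (below RBP4 and VGAT) carried the same Cre-dependent GFP-Rpl10a reporter, and mice were taken at postnatal day 21. Each of the 5 replicates of a line was a pool of forebrains of both sexes, so no value belongs to 1 animal. The labels give the tissue as cortex whereas the protocol describes forebrain, and markers of striatal projection neurons were present in all 40 libraries. Every pool gave 4 libraries. These were RNA of the whole-cell homogenate (WCH), ribosome-bound RNA of the tagged cells captured from that homogenate (TRAP), RNA of the synaptoneurosome fraction, in which pinched-off synapses and neurites are concentrated (SNF), and ribosome-bound RNA captured from the SNF (SynapTRAP, ST). WCH and SNF therefore came from all cells of the tissue in both lines, and TRAP and ST from a capture of the tagged cells.

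Vesicular glutamate transporters load cytosolic glutamate into synaptic vesicles, using the electrochemical gradient that the vesicular proton pump builds, and a neuron that makes one of them can release glutamate. VGLUT1 is the main transporter of cortical and hippocampal pyramidal neurons, and VGLUT2 that of thalamic relay neurons, many other subcortical neurons and some cortical cells. VGLUT3 is found in neurons that are usually classed by another transmitter, including striatal cholinergic interneurons, CCK-positive basket cells and serotonergic neurons of the raphe.

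In the deposited annotation, Slc17a7 (ENSMUSG00000070570) lay on chromosome 7 at 45163921 to 45176138 on the + strand, with 12 exon blocks and an exonic length of 2939 bp. Slc17a6 (ENSMUSG00000030500) lay 6445692 bp further along the same chromosome, at 51621830 to 51671125 on the + strand, with 12 exon blocks and 4319 bp. Slc17a8 (ENSMUSG00000019935) lay on chromosome 10 at 89574020 to 89621253 on the - strand, with 13 exon blocks and 4720 bp. The files name no build. Of all genes, 87.8% shared a start or an end with the GENCODE M21 annotation of GRCm38, and both ends of Slc17a8 did. No exon of another gene overlapped any of the 3, and no stretch of 50 bases, the read length, was shared between their M21 transcripts. In Slc17a8, 1.29% of such stretches also occurred in other genes. A read that fits several genes was not counted by the authors, so the 3 mRNAs could be told apart.

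Total counts per library ran from 14259535 to 22037703. Mitochondrial, rRNA and tRNA genes were left out before library sizes were set. Mitochondrial genes held between 0.0584 and 41.9% of a library, most in SNF, and 1 count was then worth between 0.0455 and 0.112 cpm, the unit of counts scaled to a common library size. Intervals and tests below rest on each gene's spread within groups of 5 pools, taken over all groups of a fit. In edgeR that spread is drawn toward a trend over all genes. The fits had no term for the pool, except where the pool is named as a block. As a check of the capture, summed GABAergic marker mRNA (6 genes) was 3704 to 5766 cpm in VGAT TRAP and 109 to 509 cpm in RBP4 TRAP, whereas summed layer 5 markers (6 genes) were 478 to 516 and 716 to 951 cpm. Of those 6 genes, 3 were higher in RBP4 TRAP than in VGAT TRAP and 2 lower. The lower ones were Rbp4, the gene for which the RBP4 line's driver is named (log2 fold change -2.43), and the transcription factor gene Bcl11b (-1.08). 3 libraries stood apart in these lists. RBP4 TRAP replicate 5 had the most GABAergic and oligodendrocyte marker mRNA of its group (509 and 5270 cpm, against at most 165 and 868 cpm in the other 4). VGAT TRAP replicate 3 had the most pyramidal and oligodendrocyte marker mRNA of its own (1612 and 2238 cpm). VGAT TRAP replicate 5 came next (1281 and 1633 cpm), and replicates 1, 2 and 4 had at most 808 and 526 cpm. VGAT mRNA itself stood at 49.9 cpm in RBP4 ST replicate 4, inside the range of VGAT ST (23.3 to 51.3 cpm). The other RBP4 ST libraries held 10.9 to 19.7 cpm. RBP4 SNF, with no capture, held 24.1 to 44.2 cpm, and 37.8 cpm in replicate 4, so this value does not decide whether the label holds. Values without VGAT pool 3, RBP4 pool 5 or RBP4 pool 4 are given beside changes in TRAP and in ST below. VGAT pool 5 was left out only as part of leaving out each pool in turn.

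VGLUT1 mRNA was the most abundant transporter mRNA in every group. In WCH it was at 431, 270.5, 352, 446 and 311 cpm in RBP4 replicates 1 to 5 and at 362, 350.0, 326, 342 and 330.0 cpm in VGAT replicates 1 to 5. In TRAP it was at 590.4, 489, 611, 639 and 433 cpm in RBP4 and at 24.6, 24.7, 155, 39.1 and 48.8 cpm in VGAT. The TRAP groups did not overlap, and VGAT TRAP replicate 3 was more than 3 times the next library of its group. In SNF the values were 727, 888, 717, 978 and 611 cpm in RBP4 and 939, 1144, 719, 748 and 784 cpm in VGAT, so that every SNF library was above every WCH library of its line. In ST they were 550.4, 1084, 682, 885 and 1012 cpm in RBP4 and 688, 713, 635, 396 and 419 cpm in VGAT. The ST groups of the lines overlapped. Group means followed the order VGAT SNF (867 ± 177 cpm, SD, n = 5), RBP4 ST (843 ± 224), RBP4 SNF (784 ± 147), VGAT ST (570.2 ± 151), RBP4 TRAP (552 ± 87.5), RBP4 WCH (362 ± 75.6), VGAT WCH (342 ± 14.7) and VGAT TRAP (58.5 ± 55.0). Each neighbour in that order overlapped with the next except the last pair.

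VGLUT2 mRNA was at 50.9, 64.1, 52.3, 42.5 and 31.2 cpm in RBP4 WCH replicates 1 to 5 and at 48.8, 50.6, 50.1, 53.6 and 45.6 cpm in VGAT WCH. In TRAP it was at 39.2, 35.3, 32.3, 35.9 and 26.3 cpm in RBP4 and at 2.87, 1.96, 8.55, 2.64 and 5.64 cpm in VGAT. VGAT TRAP held the lowest 5 libraries of all 40, and replicate 3 was again the highest of them. In SNF the values were 151, 183, 62.2, 107 and 54.9 cpm in RBP4 and 153, 153, 77.4, 129 and 96.4 cpm in VGAT. In ST they were 69.2, 93.4, 29.8, 45.7 and 36.2 cpm in RBP4 and 57.8, 67.6, 31.1, 52.4 and 31.7 cpm in VGAT. The RBP4 pools with the most VGLUT2 mRNA in SNF, 1 and 2, also had the most in ST. Means were highest in VGAT SNF (122 ± 34.0 cpm, SD, n = 5) and RBP4 SNF (111 ± 55.4), then RBP4 ST (54.9 ± 26.2), VGAT WCH (49.7 ± 2.89), RBP4 WCH (48.2 ± 12.2), VGAT ST (48.1 ± 16.2), RBP4 TRAP (33.8 ± 4.86) and VGAT TRAP (4.33 ± 2.74). Only the last pair of neighbours did not overlap.

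VGLUT3 mRNA was the scarcest. It was at 4.58, 4.23, 3.28, 3.14 and 2.53 cpm in RBP4 WCH replicates 1 to 5 and at 3.76, 3.25, 4.71, 4.16 and 4.02 cpm in VGAT WCH. In TRAP it was at 0.715, 0.693, 1.66, 0.728 and 1.06 cpm in RBP4, which rest on 12 to 32 counts a library, and at 2.23, 5.53, 3.89, 7.03 and 5.74 cpm in VGAT, on 35 to 133 counts. Every VGAT TRAP library was above every RBP4 TRAP library, the opposite of the order of the other 2 transporters. In SNF the values were 8.38, 6.48, 5.77, 6.31 and 3.67 cpm in RBP4 and 9.45, 8.54, 5.03, 8.56 and 7.91 cpm in VGAT. In ST they were 2.65, 2.73, 1.62, 3.39 and 2.005 cpm in RBP4 and 4.04, 2.83, 2.29, 4.76 and 3.61 cpm in VGAT. The order of the means was VGAT SNF (7.90 ± 1.70 cpm, SD, n = 5), RBP4 SNF (6.12 ± 1.69), VGAT TRAP (4.88 ± 1.85), VGAT WCH (3.98 ± 0.536), RBP4 WCH (3.55 ± 0.838), VGAT ST (3.51 ± 0.976), RBP4 ST (2.48 ± 0.688) and RBP4 TRAP (0.972 ± 0.414). Every group overlapped with its neighbour in that order.

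**Figure D1:**
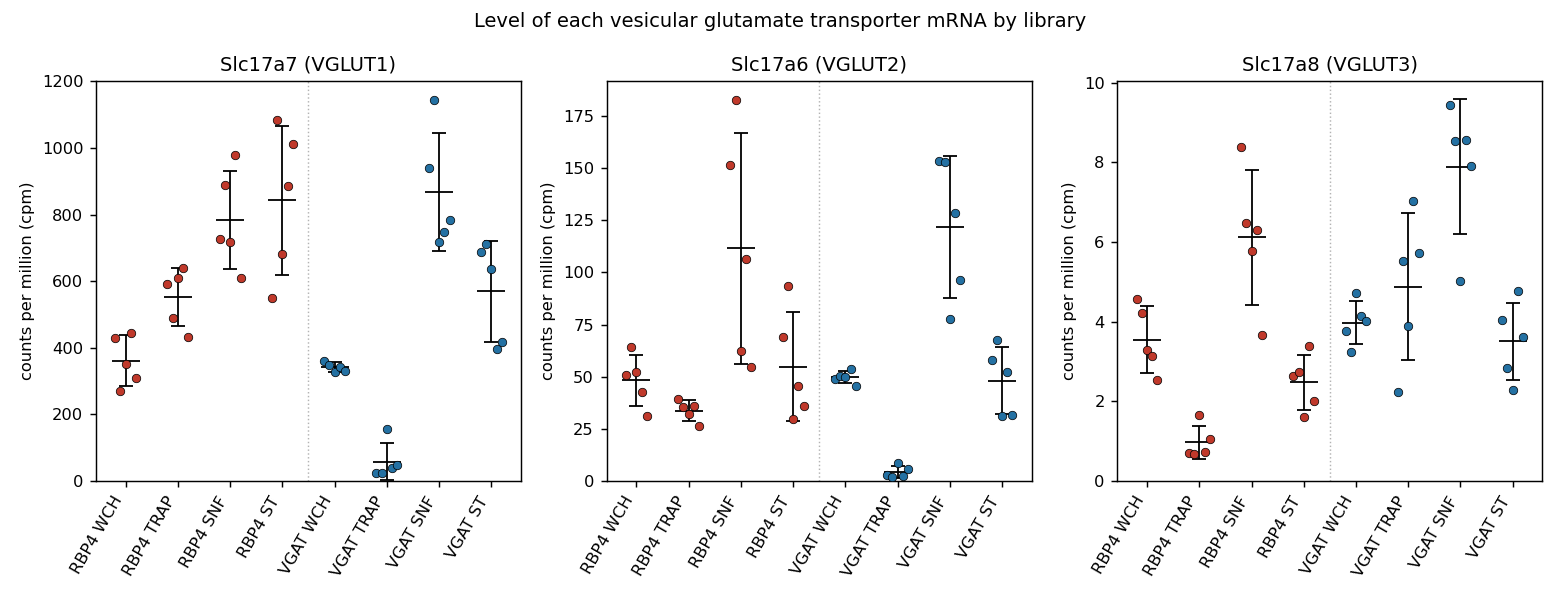
Level of Slc17a7, Slc17a6 and Slc17a8 mRNA in cpm (linear axis, a different range for each gene) in the 40 libraries. Each point is 1 library, red for the RBP4 line and blue for the VGAT line, horizontal bars are group means and whiskers are 1 SD (n = 5); VGAT TRAP is the lowest group for Slc17a7 and Slc17a6, and RBP4 TRAP for Slc17a8.

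The whole-cell captures of the lines differed for all 3 genes. Between RBP4 TRAP and VGAT TRAP, VGLUT1 mRNA was 9.45-fold higher in RBP4, with a log2 fold change of 3.24 (95% interval 2.52 to 3.96, edgeR quasi-likelihood test, adjusted p = 1.53e-08). VGLUT2 mRNA was 7.81-fold higher in RBP4, at 2.96 (2.29 to 3.64, edgeR adjusted p = 2.3e-08). VGLUT3 mRNA was 5.01-fold higher in VGAT, at -2.32 (-2.94 to -1.70, edgeR adjusted p = 4.71e-07). In this comparison 28% of 16898 genes passed the threshold, an adjusted p of at most 0.05. By size of change VGLUT1 was the 135th and VGLUT2 the 203rd from the most RBP4-enriched gene, and VGLUT3 the 466th from the most VGAT-enriched. Because VGAT TRAP replicate 3 lay so far above its group, leaving out its pool raised the VGLUT1 difference to 4.01 and gave 3.35 for VGLUT2 and -2.40 for VGLUT3. Without RBP4 pool 5 the values were 3.32, 3.04 and -2.36. All of these passed the threshold.

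Against the homogenate of the same line, the 3 mRNAs went 3 ways. In RBP4, VGLUT1 mRNA rose in TRAP by a log2 fold change of 0.61 (95% interval 0.19 to 1.03, edgeR adjusted p = 0.0216), higher in 5 of 5 pools. That call was lost in 3 of the 5 fits that left out 1 pool, with an edgeR adjusted p of 0.068 without pool 2, 0.0813 without pool 3 and 0.0502 without pool 4. VGLUT2 mRNA was lower in 5 of 5 RBP4 pools but did not pass the threshold (-0.51, 95% interval -1.15 to 0.13, edgeR adjusted p = 0.194). VGLUT3 mRNA fell in RBP4 TRAP by 1.86 on the log2 scale, a 3.64-fold lower level (-2.51 to -1.22, edgeR adjusted p = 8.67e-05), and the groups did not overlap. Without RBP4 pool 5 the 3 changes were 0.64, -0.56 and -1.997, and the calls were as with it. Of 17043 genes in the RBP4 line, 39.9% passed in this comparison.

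In VGAT, VGLUT1 mRNA was 5.85-fold lower in TRAP than in WCH (log2 fold change -2.55, 95% interval -3.32 to -1.78, edgeR adjusted p = 5.65e-06). VGLUT2 mRNA was 11.5-fold lower, at -3.52 (-4.19 to -2.85, edgeR adjusted p = 1.59e-08), the 340th most depleted of 16990 genes. All 5 TRAP libraries lay below all 5 WCH libraries for both genes. Without VGAT pool 3 the log2 fold changes were -3.33 and -3.90, and both passed. VGLUT3 mRNA, in contrast, was higher in TRAP in 3 of 5 VGAT pools, and its change of 0.30 (-0.22 to 0.82) did not pass (edgeR adjusted p = 0.307). In VGAT 62.8% of genes passed in this comparison.

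All 3 transporter mRNAs rose in the synaptoneurosome fraction of both lines. From WCH to SNF, VGLUT1 mRNA rose 2.17-fold in RBP4 (log2 fold change 1.12, 95% interval 0.69 to 1.54, edgeR adjusted p = 0.000309) and 2.53-fold in VGAT (1.34, 0.60 to 2.08, edgeR adjusted p = 0.00235). VGLUT2 mRNA rose 2.32-fold (1.21, 0.56 to 1.86, edgeR adjusted p = 0.00334) and 2.45-fold (1.29, 0.70 to 1.88, edgeR adjusted p = 0.000452). VGLUT3 mRNA rose 1.72-fold (0.78, 0.18 to 1.39, edgeR adjusted p = 0.0308) and 1.99-fold (0.99, 0.47 to 1.52, edgeR adjusted p = 0.00167). Each gene was higher in SNF in 5 of 5 pools of each line. Of all genes, 49.6% passed in RBP4 and 64.5% in VGAT. The RBP4 call of VGLUT3 was the least secure of these, being lost without pool 1, 2 or 4 (edgeR adjusted p 0.0939, 0.0643 and 0.0956).

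Ribosome capture from the SNF was accompanied by less VGLUT2 and VGLUT3 mRNA, in both lines. From SNF to ST, VGLUT2 mRNA fell by 1.02 on the log2 scale in RBP4 (95% interval -1.67 to -0.38, edgeR adjusted p = 0.0358) and by 1.34 in VGAT (-1.93 to -0.75, edgeR adjusted p = 0.0011). VGLUT3 mRNA fell by 1.30 in RBP4 (-1.92 to -0.68, edgeR adjusted p = 0.00598) and by 1.17 in VGAT (-1.70 to -0.64, edgeR adjusted p = 0.00136). Both were lower in ST in 5 of 5 pools of each line. VGLUT1 mRNA showed no such drop in RBP4, where the log2 fold change was 0.10 (-0.32 to 0.53, edgeR adjusted p = 0.8) and 2 of 5 pools were higher. In VGAT every ST library was below every SNF library for VGLUT1, yet the change of -0.60 did not pass (-1.33 to 0.12, edgeR adjusted p = 0.219). It passed without VGAT pool 3 (-0.71, edgeR adjusted p = 0.0233).

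From SNF to ST, 11.1% of all genes passed in RBP4 and 27.5% in VGAT. In RBP4 the VGLUT2 call was lost without pool 1, 3 or 4 (edgeR adjusted p 0.145, 0.0671 and 0.155) and the VGLUT3 call without pool 1 (0.0622). Without pool 4, that of the RBP4 ST library with the most VGAT mRNA, the changes were 0.18, -0.98 and -1.43 for VGLUT1, VGLUT2 and VGLUT3. The change from SNF to ST was compared between the lines directly. The difference, RBP4 minus VGAT, was 0.71 for VGLUT1 (-0.14 to 1.56), 0.32 for VGLUT2 (-0.58 to 1.21) and -0.13 for VGLUT3 (-0.89 to 0.64), with an edgeR adjusted p of 0.998 for each. In that comparison 0% of genes passed by edgeR's quasi-likelihood test, 449 had an unadjusted p under 0.05, and the likelihood ratio test called 4 while DESeq2 called 0.

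**Figure D2:**
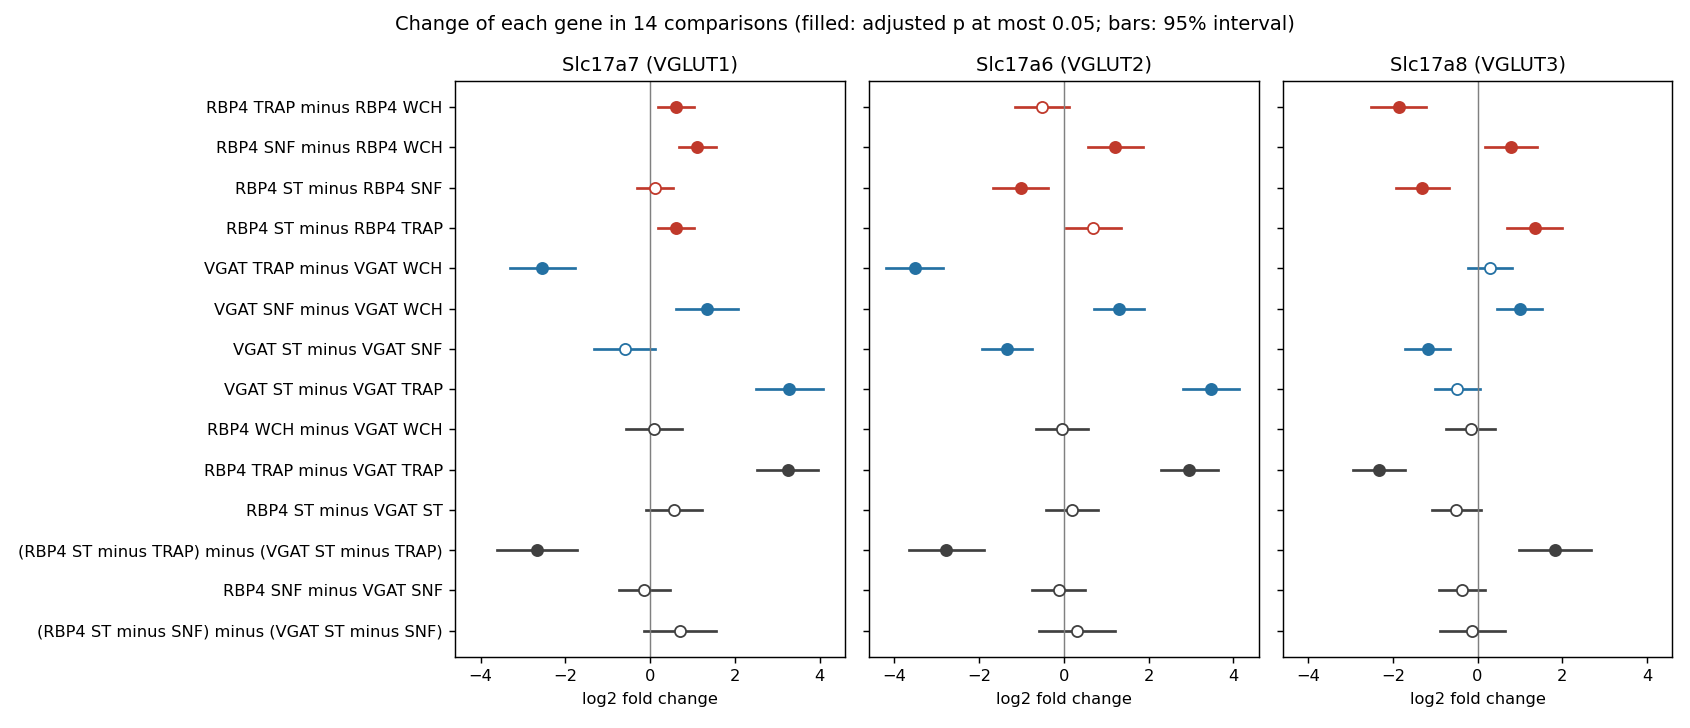
Log2 fold change of each gene in the 14 comparisons, with its 95% interval, from edgeR's quasi-likelihood fit. Filled circles passed an adjusted p of 0.05 and open circles did not, red for comparisons within RBP4, blue within VGAT and grey between the lines; all 3 genes lie to the right of 0 for SNF minus WCH in both lines.

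ST and TRAP are the captures from the SNF and from the homogenate. VGLUT1 mRNA was higher in ST than in TRAP in both lines, VGLUT2 mRNA in VGAT and VGLUT3 mRNA in RBP4. In VGAT, VGLUT1 mRNA was 9.76-fold higher in ST than in TRAP (log2 fold change 3.29, 95% interval 2.49 to 4.08, edgeR adjusted p = 1.16e-07) and VGLUT2 mRNA 11.1-fold higher (3.48, 2.81 to 4.14, edgeR adjusted p = 4.45e-09). The groups did not overlap for either gene. Without pool 3, whose TRAP library stood apart, the log2 fold changes were 4.01 for VGLUT1 and 3.98 for VGLUT2, and both passed. VGLUT3 mRNA was lower in ST in 4 of 5 VGAT pools, a change of -0.48 (-1.01 to 0.05) that did not pass (edgeR adjusted p = 0.0972) and that passed without pool 1 (-0.72, edgeR adjusted p = 0.0195). In VGAT 71.5% of genes passed.

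In RBP4, VGLUT3 mRNA was 2.54-fold higher in ST than in TRAP (log2 fold change 1.35, 95% interval 0.70 to 1.99, edgeR adjusted p = 0.000866) and VGLUT1 mRNA 1.53-fold higher (0.61, 0.18 to 1.03, edgeR adjusted p = 0.015). The VGLUT1 call was lost without pool 2 or 5 (edgeR adjusted p 0.0986 and 0.0812). VGLUT2 mRNA had a change of 0.70 (0.06 to 1.34) and did not pass (edgeR adjusted p = 0.0607), but with the pool as a replicate block it did (0.58, edgeR adjusted p = 0.0192). In RBP4 55.1% of genes passed. Without the pool of RBP4 ST replicate 4, the one with the most VGAT mRNA, the changes were 0.65, 0.78 and 1.12 for VGLUT1, VGLUT2 and VGLUT3. Without pool 5 they were 0.46, 0.74 and 1.45, and that of VGLUT2 passed (edgeR adjusted p = 0.0404).

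The change from TRAP to ST differed between the lines for each gene. RBP4 minus VGAT, the difference of the changes was -2.68 for VGLUT1 (95% interval -3.62 to -1.73, edgeR adjusted p = 0.000148), -2.78 for VGLUT2 (-3.67 to -1.89, edgeR adjusted p = 3.82e-05) and 1.83 for VGLUT3 (0.98 to 2.67, edgeR adjusted p = 0.00282). This interaction was called for 10.8% of genes. Without RBP4 pool 4 it was -2.64, -2.69 and 1.60 for the 3 genes, and without VGAT pool 3 it was -3.40, -3.29 and 1.78. The interaction shares its TRAP libraries with the comparison of the whole-cell captures, so the 2 results are not separate evidence.

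The ST groups of the lines were not told apart by any transporter mRNA. RBP4 minus VGAT, the log2 difference in ST was 0.56 for VGLUT1 (95% interval -0.10 to 1.22, edgeR adjusted p = 0.517), 0.19 for VGLUT2 (-0.42 to 0.79, edgeR adjusted p = 0.851) and -0.50 for VGLUT3 (-1.08 to 0.09, edgeR adjusted p = 0.519). Those intervals exclude a difference as large as that in TRAP. Without the pool of RBP4 ST replicate 4 the values were 0.55, 0.25 and -0.64, none past the threshold. Across all genes 0.325% passed here. The fractions with no capture gave small differences between the lines as well. In WCH they were 0.08, -0.05 and -0.16 (edgeR adjusted p = 1 for each), where 0.0118% of genes passed. In SNF they were -0.14, -0.13 and -0.37 (edgeR adjusted p = 0.999 for each), where 0.0178% passed, and the widest of these 6 intervals reached from -0.58 to 0.74.

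Because a few mRNAs can take up much of a library, cpm values are relative, and the median gene was not at 0 in every comparison. It lay at -0.34 and -0.31 in TRAP minus WCH (RBP4 and VGAT), -0.50 and -0.52 in SNF minus WCH, 0.08 in VGAT ST minus SNF, -0.08 in RBP4 minus VGAT ST and -0.11 in the line difference of ST minus SNF. Relative to it, the 3 genes changed by 0.95, -0.17 and -1.53 in RBP4 TRAP and by -2.24, -3.21 and 0.61 in VGAT TRAP. From WCH to SNF they changed by 1.61, 1.71 and 1.28 in RBP4 and by 1.86, 1.81 and 1.51 in VGAT. TMM factors brought that median nearer to 0 in each comparison listed above, but not in RBP4 minus VGAT TRAP (from -0.015 to 0.045). They kept the sign of all 42 changes and moved the split of calls. In RBP4 TRAP minus WCH it went from 1427 higher and 5372 lower genes to 3296 and 3815, and in VGAT from 3561 and 7106 to 4987 and 5530. In SNF minus WCH it went from 2286 and 6161 to 3284 and 3048 (RBP4) and from 3283 and 7680 to 4187 and 4747 (VGAT), in VGAT ST minus SNF from 2771 and 1905 to 1987 and 2480, and in RBP4 minus VGAT ST from 10 and 45 to 15 and 36.

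Levels of different genes were compared per length, as cpm per kb of exon. The paper describes reads strongly biased toward the primed end of transcripts, so counts need not scale with exon length. Without the length scaling, the shares of VGLUT2 and VGLUT3, the longer genes, would be higher. By this measure VGLUT1 made up 90.9 ± 3.31% of the summed transporter mRNA in RBP4 WCH and 90.4 ± 0.586% in VGAT WCH (SD, n = 5), VGLUT2 8.54 ± 3.16 and 8.95 ± 0.524%, and VGLUT3 0.570 ± 0.164 and 0.658 ± 0.108%. SNF had nearly the same makeup, with VGLUT2 at 8.54 ± 3.44% in RBP4 and 8.63 ± 1.52% in VGAT. In ST the VGLUT2 share was 4.41 ± 2.27% in RBP4 and 5.55 ± 1.81% in VGAT, lower than in the SNF of the same pool in 10 of 10 pools. The VGLUT1 share was correspondingly 95.4 ± 2.32 and 94.1 ± 1.96%.

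The makeup of the TRAP groups differed between the lines. In RBP4 TRAP, VGLUT1 made up 95.9 ± 0.463%, VGLUT2 4.02 ± 0.485% and VGLUT3 0.107 ± 0.0447%, with a median of 1134 VGLUT1 for 1 VGLUT3 mRNA per length. In VGAT TRAP, VGLUT1 made up 88.0 ± 4.18% and VGLUT2 5.17 ± 1.62%. The VGLUT3 share there was 6.83 ± 3.99%, between 1.48% in replicate 3 and 11.7%, and was above that of WCH in 5 of 5 pools. There the median ratio of VGLUT1 to VGLUT3 was 13.7 and that of VGLUT2 to VGLUT3 was 1.07, whereas in the other 7 groups VGLUT2 was at least 9.60 times VGLUT3 in every library. VGLUT3 mRNA in VGAT TRAP, at 1.03 ± 0.393 cpm per kb, was close to the 1.003 ± 0.635 cpm per kb of VGLUT2. These shares are descriptions, with no test.

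**Figure D3:**
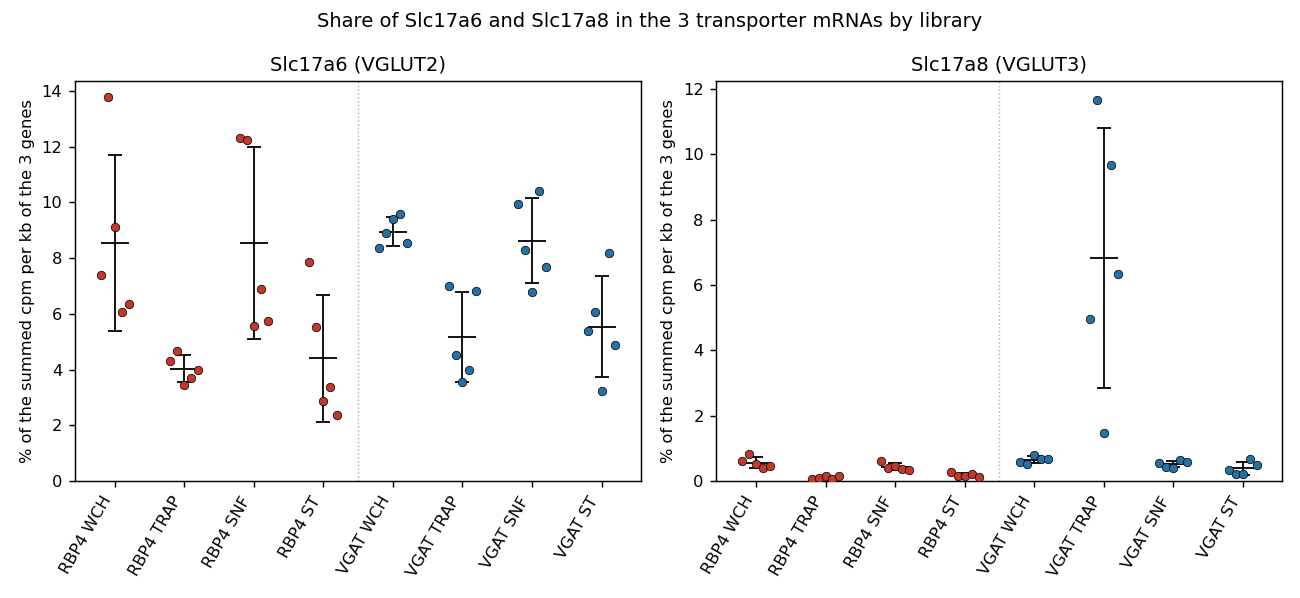
Share of Slc17a6 and Slc17a8 in the summed cpm per kb of the 3 transporter mRNAs, in percent (linear axes with different ranges), for each of the 40 libraries. Points are libraries, red for RBP4 and blue for VGAT, with the group mean and 1 SD (n = 5); the Slc17a8 share stands out in VGAT TRAP, and the Slc17a6 share is lower in TRAP and ST than in WCH and SNF by group mean.

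The markers of several cell types moved with the transporter mRNAs. In a bulk library, fewer cells of a type and less RNA per cell cannot be told apart. Of 7 pyramidal neuron markers, 6 were higher in RBP4 TRAP than in VGAT TRAP and none lower, and their summed level was 1769 to 2602 cpm against 649 to 1612 cpm, with each marker present in every library. In VGAT ST the same sum was 5006 to 5910 cpm, and in RBP4 ST 3196 to 6629 cpm. In SNF it was 2151 to 2384 cpm in VGAT and 2170 to 2755 cpm in RBP4. From VGAT SNF to ST, Camk2a passed as higher (1.65), and Slc30a3 (-0.65) and Neurod6 (-1.05) as lower. From TRAP to ST in VGAT, 5 of the 7 rose and 1 fell, with Camk2a, a kinase subunit whose mRNA is found in dendrites, rising by 3.49. The summed GABAergic markers were 638 to 1314 cpm in VGAT ST and 498 to 676 cpm in RBP4 ST, far closer than in TRAP. In SNF they were 848 to 1291 cpm in VGAT and 799 to 1066 cpm in RBP4. The sum was thus not enriched by capture from VGAT SNF (median 880 cpm in ST and 1080 cpm in SNF), though Slc32a1 (0.58) and Dlx1 (0.44) passed as higher in ST. The 5 oligodendrocyte markers summed to 345 to 5270 cpm in RBP4 TRAP and 378 to 2238 cpm in VGAT TRAP, but to 31259 to 43784 cpm in RBP4 ST and 31861 to 53924 cpm in VGAT ST, above the 11796 to 18415 cpm and 14472 to 17640.1 cpm of SNF. VGLUT1 mRNA in VGAT TRAP was highest in the library with the most pyramidal, astrocyte (1101 cpm) and oligodendrocyte marker mRNA, replicate 3. The part of these markers' cells in the transporter values was not tested.

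**Figure D4:**
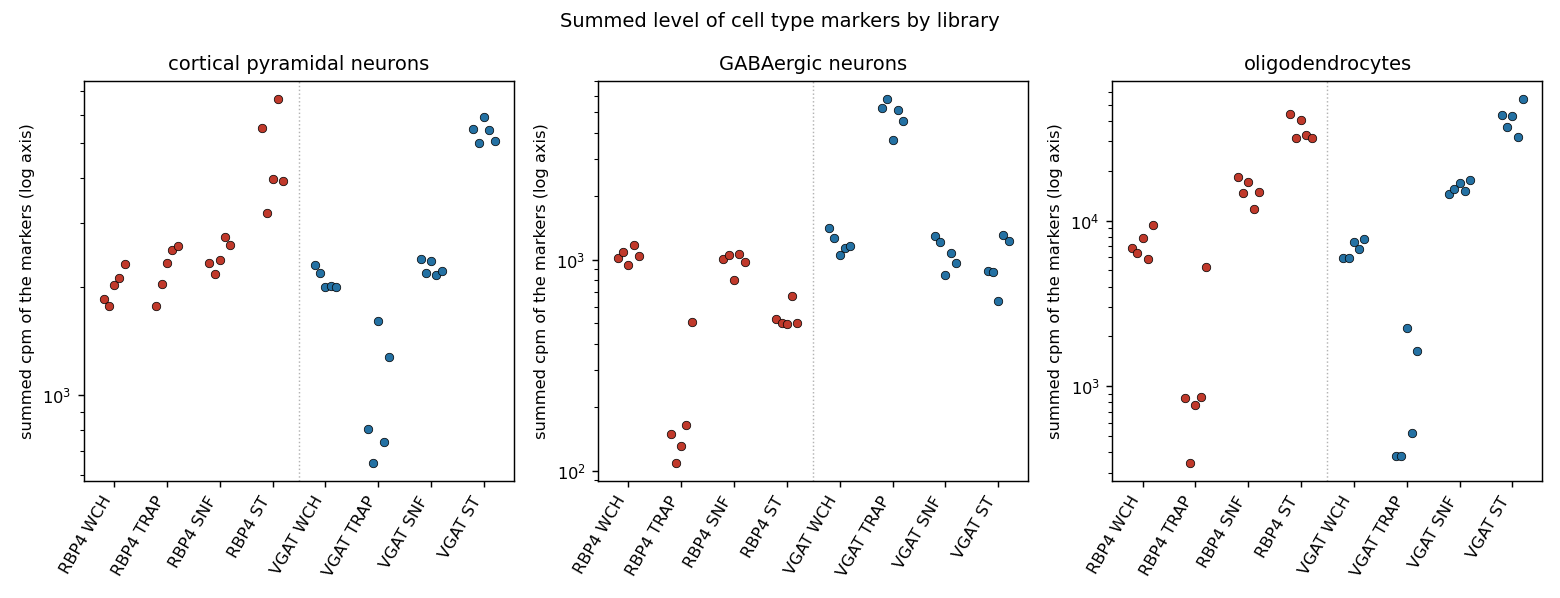
Summed cpm (log axis) of markers of cortical pyramidal neurons (7 genes), GABAergic neurons (6 genes) and oligodendrocytes (5 genes) in the 40 libraries, red for RBP4 and blue for VGAT. Each point is 1 library; GABAergic markers separate the lines in TRAP more than in ST, and oligodendrocyte markers are highest in ST of both lines.

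For VGLUT2, the relevant other cells include thalamic relay neurons. Of their 6 markers 4 were lower in RBP4 TRAP than in WCH and none higher, with Tcf7l2, a transcription factor of thalamic neurons, at -3.04 and Lef1 at -2.81. Summed, they stood at 55.2 to 176 cpm in RBP4 WCH and 9.69 to 38.5 cpm in RBP4 TRAP, and at 79.2 to 128 and 28.4 to 63.6 cpm in VGAT, with Gbx2 at 0 in at least 1 library of every group but RBP4 WCH. From SNF to ST, where VGLUT2 mRNA fell, none of these markers passed in either line (6 tested in RBP4 and 5 in VGAT).

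For VGLUT3, cholinergic markers had a similar contrast between the TRAP groups. All 5 were lower in RBP4 TRAP than in VGAT TRAP, among them Slc18a3, the vesicular acetylcholine transporter, at a log2 fold change of -4.45. Their sum was 0.842 to 5.83 cpm in RBP4 TRAP and 27.6 to 48.0 cpm in VGAT TRAP, against 11.2 to 18.3 and 12.5 to 22.6 cpm in WCH. Chat, the acetylcholine-synthesizing enzyme, and Lhx8 were at 0 in at least 1 RBP4 TRAP library. Of 4 CCK basket cell markers, 3 were lower in RBP4 TRAP than in VGAT TRAP, among them Vip (-5.87) and Sncg (-4.79), and Cck was higher (1.47). This contrast was not particular to these cell types. Summed striatal projection neuron markers (6 genes) were at 107 to 271 cpm in RBP4 TRAP and 3178 to 4949 cpm in VGAT TRAP. In WCH they were at 389 to 734 and 472 to 764 cpm. Of 3 serotonergic markers, Slc6a4 and Fev were at most 0.650 and 0.508 cpm in any library. The whole list summed to 2.92 to 6.83 cpm in RBP4 TRAP and 2.997 to 6.61 cpm in VGAT TRAP, ranges that overlapped. Most of that sum came from the remaining gene.

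In the pathway around the transporters, none of the 16 vesicular proton pump genes passed between RBP4 TRAP and VGAT TRAP, where 28% of all genes did, with a median log2 fold change of 0.13 beside -0.01 for all genes. Of 10 vesicle protein genes, 3 were lower in RBP4, including the synaptobrevin Vamp1 (-2.12) and the calcium sensor Syt2 (-2.60). Over all genes, 2546 of 16898 were lower. Among 8 vesicular transporters of other transmitters and SV2 proteins, 2 were higher and 4 lower. The former were Sv2b, a vesicle glycoprotein (2.74), and the zinc transporter Slc30a3 (1.06), and the latter included VGAT itself (Slc32a1, -4.34) and Slc18a3. Of 10 glutamate supply genes, 2 were higher, among them the mitochondrial glutamate carrier Slc25a22 (0.90), and 2 lower, among them the glutamine transporter Slc38a1 (-1.41). None of 4 glutamate uptake genes passed. In the rest of the SLC17 family, Slc17a5 (sialin, 0.91) and Slc17a9 (the vesicular nucleotide transporter, 2.42) were both higher in RBP4 TRAP. Slc17a9 was at no more than 0.255 cpm in VGAT TRAP, and Slc17a1, Slc17a2, Slc17a3 and Slc17a4, transporters known from kidney and liver, were too low to test.

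Between WCH and TRAP, vesicular proton pump genes passed only as higher in TRAP. In RBP4 7 of 16 rose and none fell, and in VGAT 8 rose and none fell, counts that became 13 and 13 with TMM factors. Over all genes 39.9% passed in RBP4 and 62.8% in VGAT. Counting both directions, the share of pump genes that passed was near that of all genes in RBP4 and below it in VGAT. Counting only genes higher in TRAP (1427 of 17043 in RBP4 and 3561 of 16990 in VGAT), the pump share was larger in both lines. Of the glutamate supply genes, 1 rose and 5 fell in RBP4 TRAP and 3 rose and 5 fell in VGAT TRAP. Of the vesicle protein genes 1 rose and 3 fell in RBP4 and 4 rose and 1 fell in VGAT, and of the vesicular transporters of other transmitters 0 rose and 2 fell in RBP4 and 3 rose and 3 fell in VGAT. The glutamate uptake genes Slc1a2 and Slc1a3, the main transporters of astrocytes, fell in both lines (Slc1a2 at -2.29 in RBP4 and -2.97 in VGAT).

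From WCH to SNF, where 49.6% of all genes passed in RBP4 and 64.5% in VGAT, 2286 genes rose and 6161 fell in RBP4 and 3283 rose and 7680 fell in VGAT. Of the 8 vesicular transporters of other transmitters 4 rose in RBP4 and 6 in VGAT and none fell, with median log2 fold changes of 1.07 and 1.21 beside -0.50 and -0.52 for all genes. Sv2a, another vesicle glycoprotein, rose by 1.34 and 1.31. All 4 glutamate uptake genes rose in both lines. In the vesicular proton pump 6 genes rose and 9 fell in each line (in RBP4 with TMM factors 6 and 5), in the vesicle proteins 5 rose and 4 fell in each, and in glutamate supply 4 rose and 5 fell in each. Slc17a5 rose by 0.87 and 0.86.

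From SNF to ST, where 11.1% of all genes passed in RBP4 and 27.5% in VGAT, fewer genes of these lists passed. In RBP4, 1 glutamate supply gene, 1 proton pump gene and 3 vesicle protein genes fell and 1 vesicle protein gene, Vamp2, rose (0.75), and no other vesicular transporter or glutamate uptake gene passed. In VGAT 1 vesicular transporter rose, Slc32a1 itself (0.58), which did not pass as higher with TMM factors, and 3 fell, among them the monoamine transporter Slc18a2 (-1.41) and Slc30a3 (-0.65). There 4 proton pump, 3 vesicle protein, 2 glutamate supply and 1 uptake gene fell, and 1, 3, 1 and 0 rose, and Slc17a5 fell by 0.85. By size of change VGLUT2 was the 228th and VGLUT3 the 427th lowest of 16990 genes in VGAT, and they were the 1178th and 555th lowest of 17043 in RBP4.

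Across the 40 libraries the 3 genes did not share 1 pattern. Over log2(cpm + 1) values, Pearson's r was 0.89 between VGLUT1 and VGLUT2, -0.04 between VGLUT1 and VGLUT3, and 0.25 between VGLUT2 and VGLUT3. Among the 14017 genes that averaged 1 cpm or more, those most like VGLUT1 were Dkk3 (0.97), Grm2, Wnt4, Ccdc80 and Nptxr (0.96 each), and VGLUT2 came 38th. Those most like VGLUT2 were Scube1 and Tspan14 (0.97 each), Met, Ptprk and Nrp1 (0.96 each). Those most like VGLUT3 were Neto2, Kit, Slc5a7, Alcam and Adra1a (0.90 each). The libraries share lines, fractions and pools, so these values describe the pattern over 8 groups and carry no p.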

How the data were processed

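RNA-seq libraries of 40 samples (2 lines, 4 fractions, 5 pools each) were analysed. Per the labels, reads were aligned with STAR 2.0.4b and uniquely aligned, unambiguous reads were counted per gene with Subread featureCounts 1.4.5 by the authors, against an Ensembl assembly whose release is not given in the sources used here. Each deposited file gives whole read counts per gene, CPM and RPKM. The deposited CPM and RPKM were computed by the authors from all counted genes, and were reproduced from the deposited counts and gene lengths. RPKM served only as another scale for levels between genes. No library pair held identical values.

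Counts were analysed with edgeR 4.0.16 (R 4.3.3), using glmQLFit and glmQLFTest with group as the only term. Mitochondrial, rRNA and tRNA genes (390) were left out before library sizes were set, no further factor was used, and genes needed 0.5 cpm in 3 libraries (of the 20 of a line, or, between lines, of the TRAP and ST libraries). Fits used the 20 libraries of a line, the 30 WCH, TRAP and ST libraries for comparisons between lines, or all 40 where SNF was compared between lines. P-values are 2-sided, with Benjamini-Hochberg adjustment over all genes tested. Log2 fold changes use a prior count of 0.125, and their intervals come from the F statistic. The fitting script was tested on simulated data in which 200 genes were changed 2-fold. It recovered 79 of them in RBP4 TRAP minus WCH, 126 in VGAT TRAP minus WCH and 134 in RBP4 minus VGAT TRAP. False calls numbered 2, 7 and 9. Python 3.11.15 with pandas 2.3.3 was used for the rest.

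The 4 libraries of 1 pool share a replicate number, and the protocol ties them to the same animals. The deviations from group means correlated within a pool by 0.411 and 0.483 (RBP4 and VGAT, SNF with ST), 0.289 and 0.340 (WCH with TRAP) and 0.226 and 0.357 (WCH with SNF), but by -0.02 and 0.06 for TRAP with ST. Alternatives were TMM factors, DESeq2 1.42.0, the likelihood ratio test, keeping all genes, testing genes with low counts too, the pool as a block, and leaving out each pool.

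The 3 genes, the gene lists and the markers were chosen with earlier results of these data known. Named genes are the 3 members, up to 2 called genes with the smallest p in each direction of a list and comparison, and the 5 genes most correlated with each member. Chat, Lhx8, Gbx2, Slc6a4 and Fev are named for their low levels. The values of 1 gene of the lists are not reported here.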

Additional observations from a re-analysis of the deposited data

Results flagged for a closer look

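VGLUT1 mRNA in VGAT TRAP replicate 3 was at 155 cpm, against 24.6 to 48.8 cpm in the other 4 libraries of its group, a gap to the next library that exceeded Dixon's critical value for 5 samples. It was the only such value among 48 tests, of the level and the share of each of the 3 genes in 8 groups, and chance gives about 1 in 20.

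The difference between the lines in the change from TRAP to ST passed the threshold of edgeR's quasi-likelihood test for all 3 genes, at -2.68 for VGLUT1, -2.78 for VGLUT2 and 1.83 for VGLUT3 (log2, RBP4 minus VGAT, n = 5 pools a group, edgeR adjusted p = 0.000148, 3.82e-05 and 0.00282).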

How the results depend on the processing

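Of the 42 changes (3 genes in 14 comparisons), 41 kept their direction and their side of the threshold with TMM factors, 41 with DESeq2, 41 with the likelihood ratio test, 41 with no filter on low counts, 41 with the replicate block and 39 with no genes left out. VGLUT2 in RBP4 ST minus TRAP (0.70) passed with TMM factors (0.78), DESeq2 (0.85), the likelihood ratio test (0.70) and the pool as a replicate block (0.58). With no genes left out, calls were lost for VGLUT3 in RBP4 SNF minus WCH (0.56), VGLUT2 in RBP4 ST minus SNF (-0.82) and VGLUT1 in RBP4 ST minus TRAP (0.52), and with no filter for VGLUT3 in RBP4 SNF minus WCH (0.78, edgeR adjusted p = 0.0719). The cause was not tested.

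Leaving out each pool in turn gave 300 values, of which 278 kept direction and side, 12 lost a call, 4 gained one and 6 changed sign. The ranges were 0.56 to 0.66 for VGLUT1 in RBP4 TRAP minus WCH, 0.73 to 0.83 for VGLUT3 in RBP4 SNF minus WCH, -0.048 to 0.20 (VGLUT1), -1.08 to -0.98 (VGLUT2) and -1.43 to -1.19 (VGLUT3) in RBP4 ST minus SNF, and 0.46 to 0.75 (VGLUT1) and 0.44 to 0.84 (VGLUT2) in RBP4 ST minus TRAP. In VGAT they were -0.71 to -0.55 for VGLUT1 in ST minus SNF and -0.72 to -0.36 for VGLUT3 in ST minus TRAP. Between the lines they were -0.0046 to 0.17 (VGLUT1) and -0.17 to 0.076 (VGLUT2) in WCH, -0.090 to 0.34 (VGLUT2) in ST and -0.38 to 0.046 (VGLUT2) in SNF. No change that passed the threshold reversed.

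By the labels, libraries of the 2 lines share only a replicate number. Replicate 3 nonetheless had the highest mitochondrial percentage in both lines, in SNF (40.2 in RBP4 and 41.9 in VGAT) and in ST (15.8 and 19.0). Same-numbered pairs correlated by -0.24 to 0.78 in SNF and -0.25 to 0.63 in WCH. Whether same-numbered libraries were handled together was not tested. Of 5 same-numbered pairs, 3 in WCH, 2 in TRAP, 3 in SNF and 3 in ST correlated above 0.1, and that number as a block gave 3.37, 2.91 and -2.30 for the 3 genes in TRAP. Counts of genes called moved most where few were called. RBP4 minus VGAT ST went from 55 to 138 with DESeq2 and 140 with the likelihood ratio test, WCH from 2 to 4 with either and 1 with no genes left out, and SNF from 3 to 5 with DESeq2. Leaving out 1 pool gave 735 to 2119 genes in RBP4 ST minus SNF (from 1893; 735, 1200 and 804 without pools 1, 3 and 4), 7 to 160 in RBP4 minus VGAT ST, 1 to 17 in SNF and 0 to 3 in WCH. On the deposited RPKM scale the mean VGLUT1 level moved by more than 1 SD in RBP4 SNF (214, from 267 cpm per kb) and VGAT WCH (111, from 116). Depth limited VGLUT3 in RBP4 TRAP, where a library held 12 to 32 counts.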
